A study of Homo sapiens with 36 samples.

Results

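DNA damage response-dependent senescence (DDR-Sen) at its latest sampled time was compared with proliferation in WI-38 cells, a line of normal human lung fibroblasts. The members were all miRNAs in the 4 libraries labelled DXR_D16 (n = 2) and Ctrl (n = 2), out of 36 small RNA libraries in the series. DDR-Sen D16 cells had received 250 nM doxorubicin (DXR), an anthracycline that stabilises topoisomerase II cleavage and breaks DNA, for 24 hours and were collected 16 days after it was washed out. Ctrl cells were untreated and proliferating. The whole study followed DXR and sodium dodecyl sulphate (SDS, a detergent used to damage the plasma membrane, PMD-Sen) from D0 to D16, beside replicative senescence (RS) reached by serial passage. DXR D0, PMD-Sen D16 and RS, with 2 libraries each, are used below as further references. All of these cells are of a single line, and the labels name no sort. The labels call the libraries biological replicates and say no more of their source. The p-values rest on the spread between libraries within groups, pooled over the 18 groups of the series unless stated otherwise. Drug, arrest and days since treatment cannot be told apart in this comparison.

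A miRNA is cut from the stem of a hairpin transcript into a 5p and a 3p strand of about the same length, one of which is usually loaded into Argonaute. Bases 2 to 8 of the loaded strand, the seed, pair with messenger RNAs and lower their translation and stability, so that miRNAs with the same seed form a family. Many hairpins lie in clusters on a shared primary transcript, and clusters such as miR-17-92 (transcribed under MYC and E2F in dividing cells) or the imprinted DLK1-DIO3 locus on 14q32 can therefore be read as units. In bulk libraries, fewer molecules per cell and fewer cells that carry a miRNA cannot be told apart.

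The sequences below are those of the miRNAs on which the results turn, grouped by cluster or family, as listed by RefSeq for GRCh38.p14, the build family used for the counts. Of the 360 miRNAs tested, 329 had an entry there. Each is written 5′ to 3′ with its seed in capitals. The first 4 share 1 seed and come from the miR-17-92 cluster (miR-17-5p, miR-20a-5p) and from the miR-106b-25 cluster (miR-93-5p, miR-106b-5p). They are followed by miR-18a-5p of the miR-17-92 cluster. MiR-92a-3p and miR-25-3p share another seed across the same 2 clusters, and miR-15b-5p shares its seed with miR-16-5p.
miR-17-5p: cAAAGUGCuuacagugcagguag
miR-20a-5p: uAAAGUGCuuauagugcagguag
miR-93-5p: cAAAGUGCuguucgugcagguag
miR-106b-5p: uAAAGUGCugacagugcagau
miR-18a-5p: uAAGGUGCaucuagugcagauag
miR-92a-3p: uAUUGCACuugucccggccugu
miR-25-3p: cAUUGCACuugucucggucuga
miR-15b-5p: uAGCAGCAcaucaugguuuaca
miR-16-5p: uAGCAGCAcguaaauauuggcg

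The following miRNAs were lower at D16 and stand outside those families, namely miR-155-5p, miR-7-5p and miR-145-5p.
miR-155-5p: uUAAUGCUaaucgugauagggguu
miR-7-5p: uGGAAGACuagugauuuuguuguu
miR-145-5p: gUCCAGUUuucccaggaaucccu

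The following were higher at D16. The first 6 come from the 14q32 locus and include miR-379-3p and miR-411-3p, which share a seed. They are followed by miR-30a-5p and miR-30c-5p, which also share one, by miR-23b-3p and miR-27b-3p from 1 cluster, and by miR-374b-5p and miR-664a-3p.
miR-337-3p: cUCCUAUAugaugccuuucuuc
miR-493-5p: uUGUACAUgguaggcuuucauu
miR-495-3p: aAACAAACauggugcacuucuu
miR-329-3p: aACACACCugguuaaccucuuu
miR-379-3p: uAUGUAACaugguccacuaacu
miR-411-3p: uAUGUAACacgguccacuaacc
miR-30a-5p: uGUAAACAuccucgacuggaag
miR-30c-5p: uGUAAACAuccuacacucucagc
miR-23b-3p: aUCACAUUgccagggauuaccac
miR-27b-3p: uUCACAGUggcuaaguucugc
miR-374b-5p: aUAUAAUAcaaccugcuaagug
miR-664a-3p: uAUUCAUUuauccccagccuaca

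Library totals were 223548 and 327354 expected counts in Ctrl and 393155 and 502232 in DDR-Sen D16, and the 10 most abundant miRNAs took 52.6% to 54.8% of each. Of the 1508 miRNAs listed, 930 had a count in at least 1 of these libraries and 360 passed the filter on low counts. Log2 CPM (CPM are counts scaled to a common, normalised library size) correlated at r = 0.976 between the Ctrl libraries and at r = 0.986 between the DDR-Sen D16 libraries, across the 360 miRNAs, which are not independent replicates. The fibroblast label was checked against 15 markers (arms of miR-199, miR-214, miR-143, miR-145, miR-21, miR-22 and miR-10b), which summed to 92553 and 97977 CPM in Ctrl and 92008 and 110937 CPM in DDR-Sen D16, with miR-10b-3p at 0 in all 4 libraries. MiR-21-5p held most of that sum, and of the 13 markers tested 10 were lower at D16, with 3 called lower, 1 called higher and a median log2 fold change of -0.58. Markers of other cell types were low. The 9 epithelial markers (the miR-200 family, miR-203a, miR-205) summed to 33.7 to 73.0 CPM, with 3 of them at 0 in all 4 libraries. The 4 muscle markers summed to 4.30 to 28.8 CPM and the 3 neuronal markers to 5.18 to 12.9 CPM, with 1 of each at 0 throughout. Of the 7 blood cell markers, miR-486-5p alone held more than 4 counts in a library, while miR-451a, the defining miRNA of red cells, had 0 or 1 count in each, and miR-150-5p and miR-223-3p were at 0 throughout.

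At D16, 83 of 360 miRNAs (23.1%) differed from Ctrl at an adjusted p under 0.05 (quasi-likelihood test of edgeR, p-values adjusted by Benjamini-Hochberg over the 360) and are termed called. Of these, 41 were higher (11.4% of those tested) and 42 were lower (11.7%). Both DDR-Sen D16 libraries lay beyond both Ctrl libraries for 246 miRNAs (68.3%), so that lack of overlap alone marked most of the profile. The median log2 fold change of all tested miRNAs was -0.03, and 26 of the called miRNAs, 18 of them higher, changed by less than 2-fold. In all fits below that leave out 1 library, the group left with 1 library has no spread of its own. The spread in the main fit comes from all 18 groups, and in those fits from the groups that keep 2 libraries. For this comparison those fits also tested 425 to 427 miRNAs, where the main fit tested 360. With all 36 libraries and no low-count filter, 62 of the 83 calls were kept. The parts of the left-out library and of the larger set in lost calls were not told apart. Every called miRNA kept its direction when any 1 of the 4 libraries was left out, but the number of calls fell to 57 without DDR-Sen D16 replicate 1, 25 without DDR-Sen D16 replicate 2, 38 without Ctrl replicate 1 and 35 without Ctrl replicate 2. The calls of 18 miRNAs held in all 4 of these fits. They were miR-155-5p, miR-92a-3p, miR-17-5p, miR-20a-5p, miR-93-5p, miR-25-3p, miR-106b-3p, miR-16-5p, miR-7-5p, miR-145-5p, miR-29b-1-5p, miR-130b-5p and miR-625-3p among those that fell, and miR-664a-3p, miR-337-3p, miR-374b-5p, miR-495-3p and miR-329-3p among those that rose. Each of the other 65 calls, named below or not, was lost without at least 1 library.

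**Figure D1:**
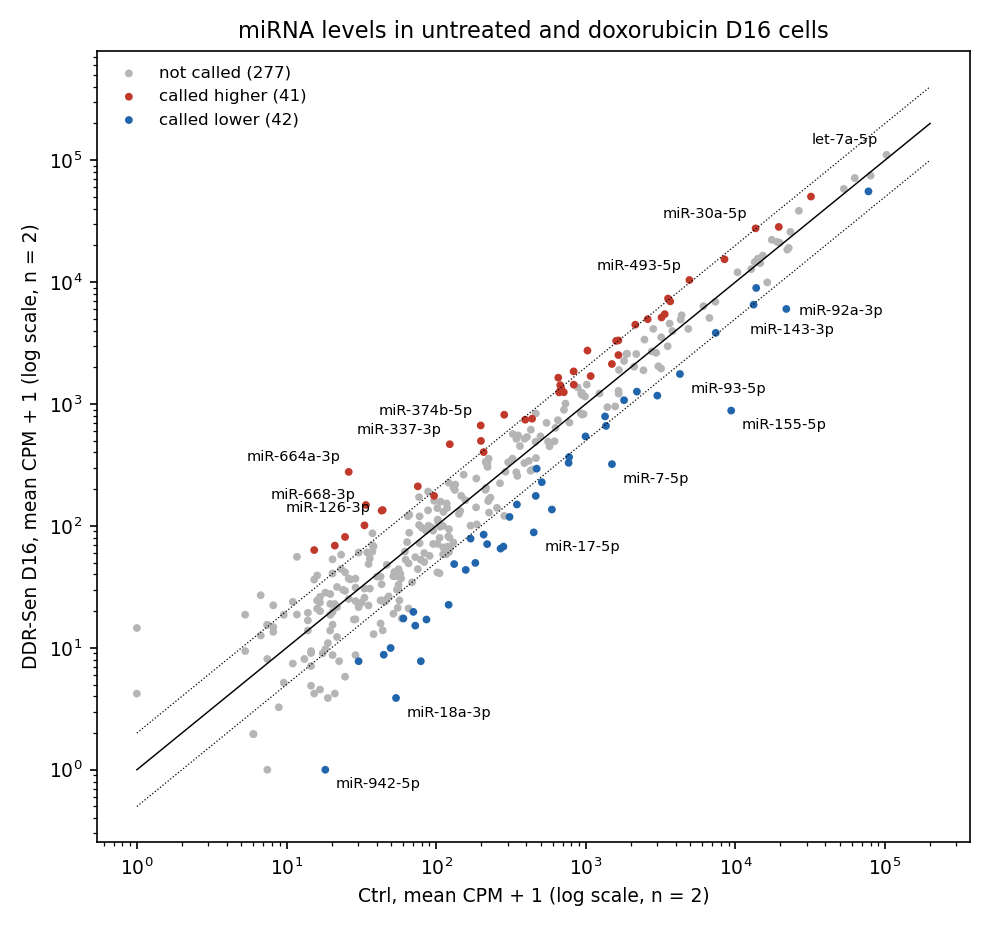
Mean CPM of each of the 360 tested miRNAs in Ctrl (x axis) and DDR-Sen D16 (y axis), both as CPM + 1 on log scales, with n = 2 libraries per group. The solid line marks equality and the dotted lines 2-fold differences. The 41 miRNAs called higher and 42 called lower are spread over the range of abundance, and miR-155-5p falls from 8830.3 and 9908 CPM to 949 and 815 CPM.

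The miR-17-92 cluster, whose hairpins share the transcript MIR17HG and which promotes proliferation, was lower. All 7 tested members were lower in both DDR-Sen D16 libraries than in both Ctrl libraries. Such a lack of overlap, in either direction, held for 68.3% of all tested miRNAs. Of the 7, 6 were called lower (85.7% of the list, against 11.7% of all tested miRNAs). Their median log2 fold change was -2.35. Its hairpins lie on chromosome 13 between the start of MIR17 at chr13:91350605-91350688 and MIR92A1 at chr13:91351314-91351391 (plus strand), and GENCODE places them over an exon of MIR17HG.

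The most abundant member, miR-92a-3p, had 20986 and 22802 CPM in the Ctrl libraries and 6791 and 5242 CPM in the DDR-Sen D16 libraries. The groups were far apart, with a log2 fold change of -1.86 ± 0.23 (SE) and an adjusted p of 1.12e-06 (edgeR). The same mature sequence, like that of miR-19b-3p, is also encoded on the X chromosome in the miR-106a-363 cluster, and none of the 4 miRNAs listed for that cluster alone reached the filter. MiR-17-5p, the lead member of the AAAGUGC seed family, had 387 and 509 CPM in the Ctrl libraries and 82.9 and 92.1 CPM in the DDR-Sen D16 libraries. It fell with a log2 fold change of -2.35 ± 0.35, and miR-20a-5p, which differs from it by few bases, went from 214.8 and 346 CPM to 70.0 and 63.3 CPM, a log2 fold change of -2.09 ± 0.37. MiR-18a-5p and miR-18a-3p were near the detection limit at D16. The 5p arm had 11 and 14 counts in Ctrl and 6 and 0 counts in DDR-Sen D16, and the 3p arm had 10 and 22 counts against 0 and 3. Summed over the libraries, miR-18a-3p was 16.6-fold lower at D16 (95% exact interval 5.20 to 84.8, counting error only). The passenger strand miR-92a-1-5p had 21 and 23 counts against 3 and 3, which is 11.4-fold lower (4.85 to 32.8). MiR-19b-3p, the remaining member tested, had 10 and 18 counts in Ctrl and was not called (-0.90 ± 0.74).

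The paralogous miR-106b-25 cluster sits in MCM7, which encodes a subunit of the replicative helicase. GENCODE places MIR106B at chr7:100093993-100094074 and MIR25 at chr7:100093560-100093643 (minus strand) in its introns. All 6 members tested were lower in both D16 libraries, as were 68.3% of all tested miRNAs in one direction or the other. Their median log2 fold change was -1.18, and 3 were called lower, against 11.7% of all tested. MiR-93-5p had 4353 and 4162 CPM in the Ctrl libraries and 1980.4 and 1540.3 CPM in the DDR-Sen D16 libraries, a log2 fold change of -1.27 ± 0.17 (adjusted p = 1.81e-06, edgeR). MiR-25-3p, which shares its seed with miR-92a-3p, had 791 and 755 CPM in Ctrl and 373 and 359 CPM at D16 and fell with a log2 fold change of -1.08 ± 0.25. MiR-106b-3p fell from 254 and 283 CPM to 72.6 and 55.6 CPM, whereas miR-106b-5p had a log2 fold change of -0.81 ± 0.44 and was not called. Across the 4 tested miRNAs with the AAAGUGC seed in both clusters, 3 were called lower and the median log2 fold change was -1.68. The 3 calls of this cluster held without each of the 4 libraries, while those of the miR-17-92 cluster numbered 4 without DDR-Sen D16 replicate 2 or Ctrl replicate 2, and 5 without either of the others.

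Members of the miR-15/16 family, which target cyclins and BCL2, were in part lower. MIR15B and MIR16-2 lie in an intron of SMC4, which encodes a condensin subunit. MiR-16-5p had 2896 and 3118 CPM in the Ctrl libraries and 1099 and 1241 CPM in the DDR-Sen D16 libraries, a log2 fold change of -1.36 ± 0.26 (adjusted p = 2.75e-04, edgeR). MiR-15b-5p went from 958 and 1033 CPM to 614 and 468 CPM (-0.88 ± 0.29), and miR-16-2-3p, the strand that only the hairpin at chr3:160404745-160404825 gives, went from 116 and 54.3 CPM to 13.0 and 19.2 CPM (-2.33 ± 0.66). MiR-16-5p is also encoded on chromosome 13, and its reads do not say which hairpin they left. Within the same seed family, miR-15a-5p from chromosome 13 had 81.6 and 120.1 CPM in Ctrl and 38.9 and 42.2 CPM at D16 and was not called (-1.32 ± 0.55), miR-424-5p was not called at 0.65 ± 0.43 and miR-503-5p, of a related seed, was level at -0.06 ± 0.18. Of the 5 family members tested, 2 were called lower (40.0%, against 11.7% of all tested miRNAs).

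MiR-155-5p showed the clearest single fall. This miRNA, known from immune cells and induced by NF-kappaB and AP-1, had 8830.3 and 9908 CPM in the Ctrl libraries and 949 and 815 CPM in the DDR-Sen D16 libraries. Its log2 fold change was -3.41 ± 0.28 (adjusted p = 1.22e-10, edgeR), and between -3.53 and -3.35 with any 1 library left out. The mature sequence lies at chr21:25573983-25574006 (plus strand) over an exon of the non-coding host gene MIR155HG. MiR-146b-5p, a second miRNA linked to NF-kappaB signalling that damps it through TRAF6 and IRAK1, moved the other way, from 756 and 901 CPM to 1944 and 1755 CPM (1.15 ± 0.30). MiR-146a-5p, with the same seed, was not called at -0.38 ± 0.57.

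MiR-7-5p and miR-31-5p were both called lower. MiR-7-5p, which represses the EGF receptor, had 1207 and 1782 CPM in the Ctrl libraries and 226 and 414 CPM in the DDR-Sen D16 libraries. Both D16 libraries lay far below both Ctrl libraries, and the log2 fold change was -2.22 ± 0.38. MiR-31-5p, encoded near CDKN2A in MIR31HG at chr9:21512115-21512185, had 7962 and 6810.3 CPM in Ctrl and 3551 and 4109 CPM at D16, a log2 fold change of -0.95 ± 0.25. Both arms of the miR-130b hairpin on chromosome 22 fell by a like amount, miR-130b-3p from 168 and 94.4 CPM to 49.3 and 46.0 CPM (-1.43 ± 0.39) and miR-130b-5p with a log2 fold change of -1.39 ± 0.28. Its seed relative miR-454-3p was not called at -0.60 ± 0.31.

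Clusters of stromal miRNAs were lower in part. The cluster of miR-143 and miR-145, which marks smooth muscle and activated fibroblasts and lies in CARMN on chromosome 5 (chr5:149428918-149429023 and chr5:149430646-149430733, plus strand), had all 4 tested arms lower and 2 called lower, against 11.7% of all tested miRNAs. MiR-143-3p had 12835 and 13618 CPM in the Ctrl libraries and 6039.7 and 7009 CPM in the DDR-Sen D16 libraries, a log2 fold change of -1.02 ± 0.37, and miR-145-5p had 1388 and 1341 CPM against 643 and 677 CPM, a log2 fold change of -1.05 ± 0.24. The call of miR-145-5p held without each library and that of miR-143-3p (adjusted p = 0.0467, edgeR) did not. Of the 4 arms tested from the miR-199a and miR-214 cluster on chromosome 1, 0 were called by edgeR or by DESeq2 with 36 libraries, and 1, miR-214-3p, had an unadjusted p under 0.05 by edgeR. The paralogue miR-199b-5p, from a hairpin at chr9:128244721-128244830 (minus strand) outside that cluster, was called lower, at 94.5 and 146 CPM in Ctrl and 18.1 and 24.9 CPM at D16. The abundant 3p arm, under a name that joins miR-199a-3p and miR-199b-3p, was not called at -0.23 ± 0.30.

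The abundant guide strands given here changed by less than 2-fold. MiR-222-3p, which represses the cell cycle inhibitor p27, was among the most abundant miRNAs over these libraries. It had 70088 and 84869.5 CPM in Ctrl and 57763 and 53046 CPM at D16. Its log2 fold change was -0.48 ± 0.16 and it was called lower (adjusted p = 0.024, edgeR). The guide strands miR-100-5p, miR-125b-5p and miR-125a-5p were not called, with log2 fold changes of -0.10 ± 0.17, 0.13 ± 0.13 and 0.15 ± 0.18. Of the miR-125 passenger strands, miR-125a-3p fell from 198 and 140.2 CPM to 88.1 and 67.1 CPM and miR-125b-1-3p from 2368 and 2022 CPM to 1426 and 1097 CPM, while the sparse miR-125b-2-3p was not called at 0.63 ± 0.73. Of the family of miR-28, miR-151a and miR-708, 1 of 7 members was called lower (14.3%, near the 11.7% of all tested miRNAs), miR-28-3p at -0.77 ± 0.22, while the abundant miR-151a-5p, whose name here joins miR-151b, was not (0.29 ± 0.16).

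**Figure D2:**
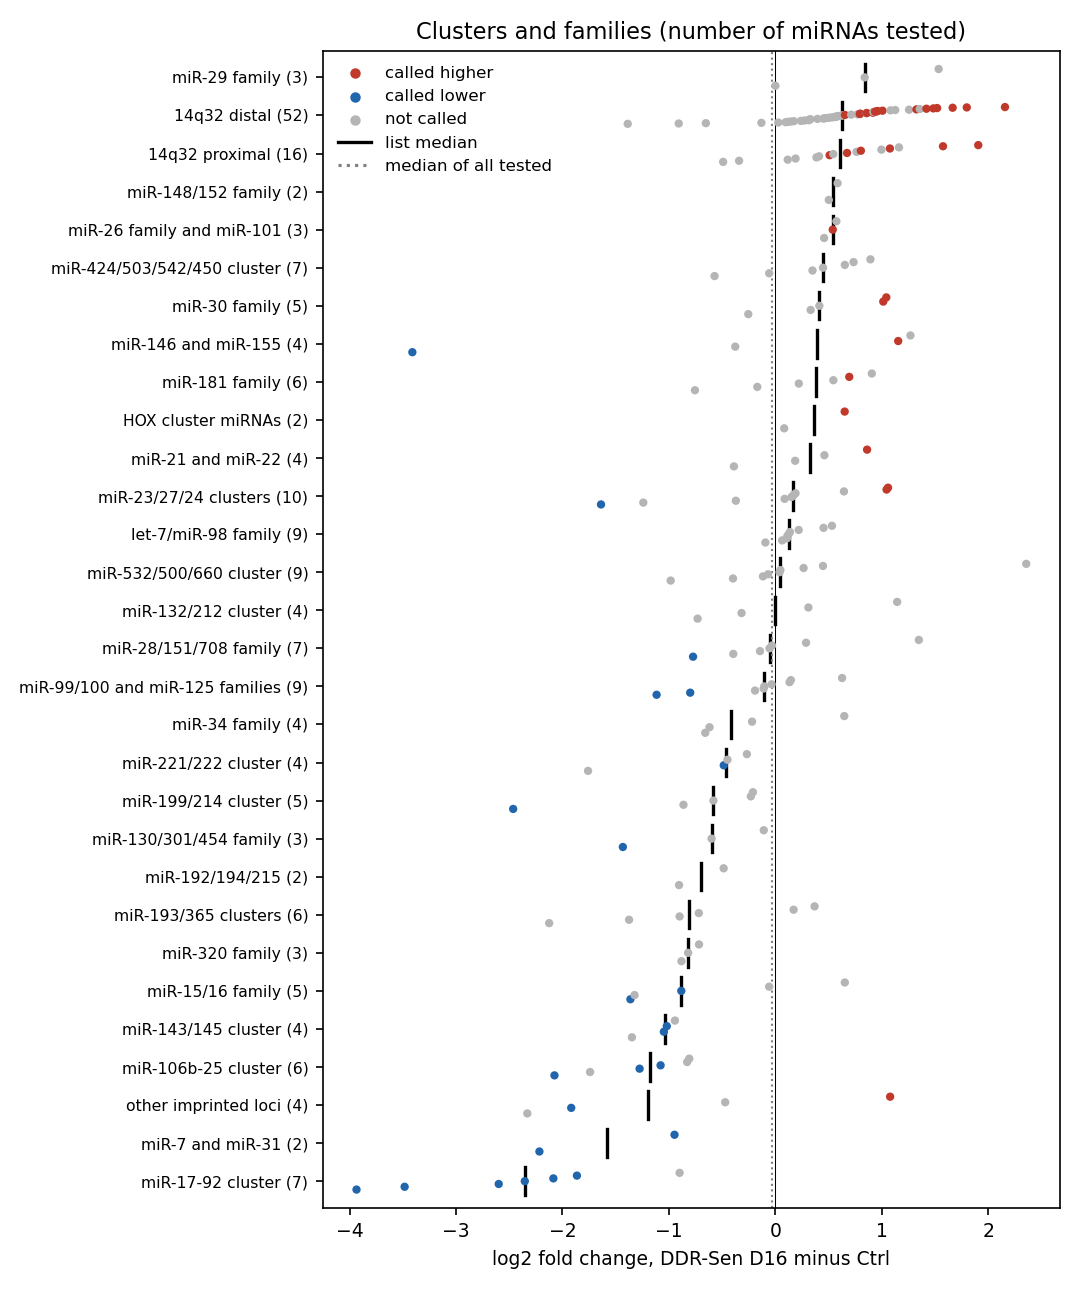
Log2 fold change (DDR-Sen D16 minus Ctrl) of each tested miRNA in the clusters and families with at least 2 tested members, ordered by their median (black bar), with the number tested in brackets. Points in red and blue were called higher and lower by edgeR and grey points were not called. The miR-17-92 list lies lowest with a median of -2.35, and the 14q32 lists hold 23 red points and no blue one. The list of hairpins over other structured RNA is not drawn because 1 member had no count in Ctrl.

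The 14q32 locus supplied 23 of the 41 miRNAs called higher (56.1%) in the fit of all 36 libraries. It is the DLK1-DIO3 imprinted domain, whose miRNAs are transcribed from the maternal chromosome and are abundant in embryonic and mesenchymal cells. Of its 68 tested miRNAs, 62 were higher at D16 than in Ctrl, and 23 were called higher (33.8%, against 6.16% of the 292 other tested miRNAs). Of the 6 lower members 0 were called by edgeR or by DESeq2, and 2 had an unadjusted p under 0.05 by edgeR. Its median log2 fold change was 0.63, against -0.25 for the others. Both D16 libraries lay above both Ctrl libraries in the sum. Together these miRNAs took 7.04% and 6.82% of the CPM of tested miRNAs in Ctrl and 9.68% and 10.0% at D16.

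The proximal group over MIR493HG and MEG8 (16 tested, 6 called) had a median of 0.61, and the distal group, with hairpins in MEG8 and MEG9 (52 tested, 17 called), a median of 0.63. Hairpins of the proximal group begin with MIR770 at chr14:100852390-100852487 and those of the distal group end with MIR656 at chr14:101066724-101066801 (plus strand). MiR-493-5p had 5032 and 4822 CPM in the Ctrl libraries and 10913 and 9879 CPM in the DDR-Sen D16 libraries, a log2 fold change of 1.08 ± 0.26. Its partner arm miR-493-3p went from 1517 and 1470.2 CPM to 2102 and 2152 CPM (0.51 ± 0.19). The call of miR-493-3p (adjusted p = 0.0499, edgeR) was lost when scaled by library totals alone, under both other filters and after thinning. MiR-337-3p had 98.8 and 146 CPM in the Ctrl libraries and 477 and 457 CPM in the DDR-Sen D16 libraries, a log2 fold change of 1.91 ± 0.31 (adjusted p = 4.32e-05, edgeR), while miR-337-5p, at 1.58 ± 0.58, was just inside the threshold (adjusted p = 0.0498, edgeR, and 0.0524 with the replicate number as a block; 0.00127 to 0.327 over all alternatives). MiR-127-3p (0.67 ± 0.17) and miR-433-3p (0.80 ± 0.29) were the other proximal calls.

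In the distal group, miR-495-3p had 1053 and 998 CPM in the Ctrl libraries and 2403 and 3081 CPM in the DDR-Sen D16 libraries, a log2 fold change of 1.42 ± 0.25 (adjusted p = 1.29e-04, edgeR). MiR-329-3p, encoded by a pair of adjacent hairpins in MEG8, had 1641 and 1662 CPM against 3261 and 3382 CPM, a log2 fold change of 1.01 ± 0.19. The replicates were within a few percent of each other in both groups. MiR-494-3p (3859 and 3472 CPM against 6439 and 7446 CPM) and miR-487b-3p (2733 and 2451 CPM against 4834 and 5085 CPM) were the most abundant distal miRNAs called. MiR-668-3p and miR-380-3p had the largest log2 fold changes, 2.16 ± 0.52 and 1.80 ± 0.55, from 34.4 and 31.5 CPM and 30.1 and 17.2 CPM in Ctrl. MiR-410-3p, miR-369-3p and miR-656-3p, at the far end of the locus, and miR-655-3p rose with log2 fold changes of 1.52 ± 0.33, 1.33 ± 0.37, 1.67 ± 0.55 and 1.49 ± 0.41. MiR-411-3p (0.80 ± 0.24) and miR-379-3p (0.86 ± 0.31), which share the AUGUAAC seed, were both called. So were miR-323a-3p, miR-323b-3p, miR-409-5p, miR-412-5p and miR-654-3p, all between 0.65 and 0.96. The call of miR-379-3p (adjusted p = 0.0462, edgeR) was lost by DESeq2 with 36 or 4 libraries. It was also lost when scaled by library totals alone and under both other filters.

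Not all of the locus moved. The most abundant distal miRNA, miR-409-3p, had 14678 and 12216 CPM in the Ctrl libraries and 15231 and 13930.0 CPM in the DDR-Sen D16 libraries. Its groups overlapped and its log2 fold change of 0.12 ± 0.20 was not called, although the other arm of its hairpin was. MiR-299-3p had the lowest value of the locus at -1.39 ± 0.55 and was not called either. The number of 14q32 calls was lower in each fit with 1 library left out, where the set of tested miRNAs also differed. It was 14 without DDR-Sen D16 replicate 1, 4 without DDR-Sen D16 replicate 2, 9 without Ctrl replicate 1 and 6 without Ctrl replicate 2. The median of the distal group lay between 0.52 and 0.77 in those fits.

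**Figure D3:**
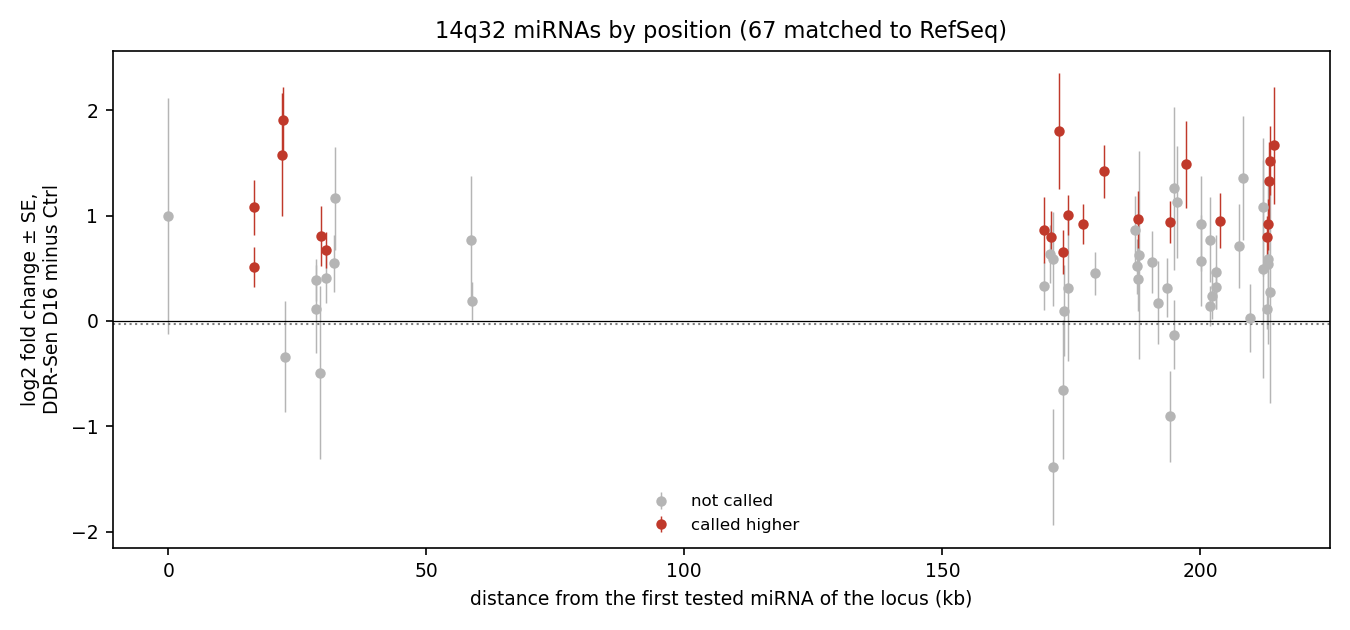
Log2 fold change (DDR-Sen D16 minus Ctrl) of the 67 tested 14q32 miRNAs with a position in RefSeq, by distance in kb from the first. Bars are the SE derived from the F statistic of edgeR. Red points were called higher, and they occur both in the proximal group at the left and along the distal group at the right of a span of 214.4 kb.

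Outside 14q32, the largest rise among called miRNAs was that of miR-664a-3p, whose hairpin overlaps the small nucleolar RNA SNORA36B in an intron of RAB3GAP2 (chr1:220200538-220200619, minus strand). It had 5 and 10 counts in Ctrl against 117 and 130 at D16, or 21.5 and 28.6 CPM in the Ctrl libraries and 303 and 249 CPM in the DDR-Sen D16 libraries. Its log2 fold change was 3.42 ± 0.53 (adjusted p = 2.82e-05, edgeR). MiR-664a-5p rose as well, from 17.2 and 11.4 CPM to 51.8 and 72.9 CPM (2.15 ± 0.62). Reads of these strands and fragments of the overlapping small nucleolar RNA cannot be told apart here. MiR-374b-5p, from the FTX transcript on the X chromosome (chrX:74218547-74218618, minus strand), had 198 and 197 CPM in the Ctrl libraries and 731 and 600.4 CPM in the DDR-Sen D16 libraries, a log2 fold change of 1.75 ± 0.29. MiR-326, in an intron of ARRB1, went from 25.8 and 14.3 CPM to 72.6 and 63.3 CPM (1.80 ± 0.60).

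A few rises concern miRNAs used as markers of other cells. MiR-126-3p, the endothelial miRNA of the EGFL7 intron, had 43.0 and 42.9 CPM in the Ctrl libraries and 122 and 146 CPM in the DDR-Sen D16 libraries, a log2 fold change of 1.64 ± 0.42. MiR-486-5p, abundant in red cells, went from 202 and 194.5 CPM to 599 and 395 CPM (1.32 ± 0.39), while the other 6 blood cell markers held at most 4 counts in any library. MiR-122-5p, the liver miRNA, had 23 and 5 counts in Ctrl and 15 and 21 at D16 and was not called. Whether RNA of other cells had a part in these values was not tested.

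Several families rose in part. In the miR-30 family, which is linked to fibroblast and epithelial differentiation, 2 of 5 5p strands were called higher, against 11.4% of all tested miRNAs. MiR-30a-5p doubled, from 13342 and 13941 CPM in the Ctrl libraries to 27388 and 27741 CPM in the DDR-Sen D16 libraries (log2 fold change 1.01 ± 0.24). MiR-30c-5p rose by 1.04 ± 0.28 on that scale, whereas the abundant miR-30d-5p was not called at -0.25 ± 0.19. Both arms of the miR-30a hairpin were called, miR-30a-3p at 0.91 ± 0.24. The hairpins MIR30A and MIR30C2 lie in the non-coding gene LINC00472 on chromosome 6 (chr6:71403551-71403621 and chr6:71376960-71377031, minus strand). MiR-30c-5p is also encoded by MIR30C1 in NFYC on chromosome 1, and its reads do not say which hairpin they left. The other strand of MIR30C2, miR-30c-2-3p, was not called (0.50 ± 0.34).

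The 2 clusters that carry miR-23, miR-27 and miR-24 parted. MiR-23b-3p and miR-27b-3p, encoded in an intron of AOPEP on chromosome 9 (chr9:95085208-95085304 and chr9:95085445-95085541, plus strand), rose from 3059 and 4030.1 CPM to 7973 and 6679 CPM (1.05 ± 0.21) and from 1951 and 2334 CPM to 4111 and 4826 CPM (1.06 ± 0.28). Their paralogues on chromosome 19 with the same seeds were not called, miR-23a-3p at 0.09 ± 0.15 and miR-27a-3p at 0.19 ± 0.27, and miR-27a-5p fell from 262 and 174 CPM to 80.4 and 59.5 CPM. A test of the difference between paralogues was not run.

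Single members of further lists rose. They were miR-22-3p, which targets CDK6 and SIRT1 (8078 and 8829.6 CPM against 14602 and 16146 CPM), miR-335-5p of the imprinted MEST gene (636 and 712 CPM against 1164 and 1686 CPM), miR-10a-5p of the HOXB cluster (0.65 ± 0.18), miR-181a-5p (0.70 ± 0.18) and miR-26a-5p (0.54 ± 0.19). MiR-296-3p, from the imprinted GNAS locus, fell at -1.92 ± 0.59, with 66 counts or fewer in each library.

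Of the 83 called miRNAs, 24 belong to none of these lists. Those not described elsewhere were picked here because they were called. MiR-574-3p was higher, from 1598 and 1705 CPM to 2890.2 and 2145 CPM. MiR-423-3p, from 12723 and 14810.4 CPM to 9368 and 8523 CPM, miR-484, from 1659 and 1945 CPM to 1133 and 1013 CPM, and miR-505-3p (-0.68 ± 0.24) were the abundant ones that fell. MiR-1307-3p, miR-744-5p, miR-671-5p, miR-4521, miR-92b-5p, miR-629-5p, miR-625-3p, miR-940 and miR-3173-5p fell too, with log2 fold changes from -2.13 to -1.17. In miR-4521 and miR-940 the Ctrl libraries differed from each other by more than 2-fold.

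Sparse miRNAs were among the lowest. MiR-942-5p, in an intron of TTF2, had 2 and 9 counts in Ctrl and 0 in both D16 libraries. Against a floor of 3 counts per library it was at least 2.54-fold lower, although Ctrl replicate 1 itself lay under that floor. MiR-3187-3p and miR-4286 fell from 43.0 and 54.3 CPM to 2.59 and 15.3 CPM and from 85.9 and 57.2 CPM to 20.7 and 7.67 CPM.

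Set apart here are 10 lists with at least 2 tested miRNAs in which edgeR called 0 of 49, where it called 23.1% of all tested. They were grouped because they held no call. Of the 49 miRNAs, 6 had an unadjusted p under 0.05 by edgeR and DESeq2 called 1. Some members were called under other fits. Among 13 alternative fits, miR-320a was called in 3, miR-193a-5p in 2 and miR-152-3p in 1, beside let-7f-5p and miR-34a-5p as given below. For the let-7/miR-98 family, which restrains growth and holds the most abundant miRNA here, 9 members were tested and their log2 fold changes lay between -0.09 and 0.53. Let-7a-5p had 119967 and 84732 CPM in the Ctrl libraries and 123108 and 97946 CPM in the DDR-Sen D16 libraries, with overlapping groups and a log2 fold change of 0.11 ± 0.20. MiR-34a-5p, a direct p53 target, had 352 and 352 CPM in the Ctrl libraries and 508 and 595 CPM in the DDR-Sen D16 libraries. Both D16 libraries were higher, but the log2 fold change of 0.65 ± 0.27 missed the threshold (adjusted p = 0.0871, edgeR). Under 1 of 13 alternative fits miR-34a-5p was called. The other 3 members of its family, with at most 20 counts in any library, were not called either, miR-34c-5p at -0.22 ± 0.55, miR-34b-3p at -0.66 ± 0.87 and miR-34c-3p with 2 and 4 counts in both groups. The median of the 4 was -0.42, and 0.56 without Ctrl replicate 2. MiR-29a-3p, which represses collagens, was level at 0.00 ± 0.25. The median of the 3 miR-29 members tested was 0.84, with the sparse miR-29c-3p highest at 1.54 (2 and 2 counts against 12 and 6). MiR-193a-5p (-0.72 ± 0.40), miR-320a (-0.72 ± 0.36), miR-152-3p (0.50 ± 0.21), miR-532-5p (0.27 ± 0.31), miR-132-3p (-0.32 ± 0.34) and miR-194-5p (-0.49 ± 0.41) were the most abundant members of the remaining lists without a call, beside miR-503-5p above. In the list led by miR-532-5p, the sparse miR-660-5p had 3 and 3 counts in Ctrl and 23 and 26 at D16. Its log2 fold change was 2.36 and it was not called. A missed threshold with 2 libraries a group does not show that these levels were equal.

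Of the 10 most abundant miRNAs over the 4 libraries, 7 were not called by edgeR and lay within 0.53 of 0 on the log2 scale. They were let-7a-5p, let-7f-5p, miR-100-5p, miR-21-5p, miR-125b-5p, miR-125a-5p and miR-30d-5p. Of these, let-7f-5p was called under 3 of 13 alternative fits. MiR-21-5p, an abundant fibroblast miRNA, had 60802 and 64610.3 CPM in the Ctrl libraries and 63354 and 79389 CPM in the DDR-Sen D16 libraries (0.19 ± 0.34). The other 3 were miR-10a-5p and miR-26a-5p, called higher, and miR-222-3p, called lower.

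Both arms were tested and had a RefSeq entry for 93 hairpins, counting each pair of strands once. Hairpins with an arm that lacked an entry, such as that of miR-21, are left out. MiR-125b-5p and other strands that several hairpins encode stand in more than 1 pair. The arms moved in the same direction for 66 of the 93, and in all 8 hairpins with both arms called the direction was shared. In 37 hairpins only 1 arm was called. The largest gap, named after its values were seen, was at MIR29B1 in LINC-PINT on chromosome 7 (chr7:130877459-130877539, minus strand), where miR-29b-1-5p fell from 653 and 532 CPM to 156 and 115 CPM (-2.13 ± 0.33) while miR-29b-3p, which a further hairpin also encodes, had 0.84 ± 0.58 and was not called. The 5p share of the counts of both strands was 96.8% and 91.2% in Ctrl and 69.0% and 63.2% at D16. At MIR335 the 5p share was 81.8% and 69.2% in Ctrl and 85.0% and 92.6% at D16. The difference between arms was not tested.

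By chromosome, over the miRNAs with a position, 22 of the 72 tested miRNAs with a locus on chromosome 14 were called higher and 2 lower, and 7 of the 9 on chromosome 13 were called lower, where the shares over all tested miRNAs were 11.4% higher and 11.7% lower. MiR-92a-3p and miR-16-5p count on chromosome 13 although each has a further locus elsewhere.

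Against DXR D0, the cells collected at the end of the 24 hours in the drug, D16 cells differed in 58 of 360 miRNAs (16.1%), 28 higher and 30 lower. This comparison uses no Ctrl library but shares the D16 libraries with the one above. Its number of calls fell when any 1 library was left out, as given in the last section. In the miR-17-92 list 5 of 7 members were called lower (median -2.23), and at 14q32 18 of 68 were called higher (median 0.73). MiR-155-5p had 6490.4 and 7280.0 CPM at D0 and a log2 fold change of -2.97 ± 0.27 from D0 to D16. MiR-337-3p (236 and 162 CPM at D0) rose by 1.22 ± 0.29, miR-664a-3p by 2.01 ± 0.45 and miR-374b-5p by 1.00 ± 0.27 on the log2 scale. Some rises against Ctrl were already present at D0 in level. MiR-126-3p, at 90.1 and 114 CPM at D0, had a log2 fold change of 0.40 ± 0.37 from then to D16 and was not called.

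**Figure D4:**
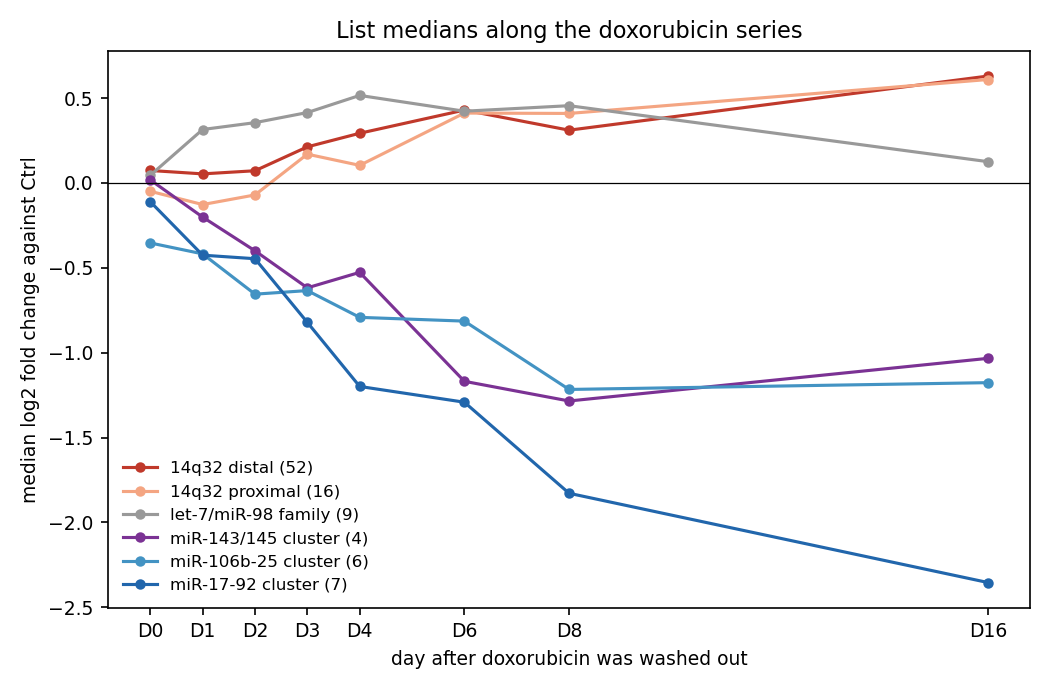
Median log2 fold change against Ctrl of the tested members of 6 lists (number in brackets) in the DXR series, by day after the drug was washed out. Each point is a median over miRNAs of contrasts that share the 2 Ctrl libraries, so no error is drawn. The miR-17-92 median goes from -0.11 at D0 to -2.35 at D16, and the 14q32 medians from -0.05 and 0.07 to 0.61 and 0.63.

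Against PMD-Sen D16, the same time after detergent, 2 of 360 miRNAs (0.556%) were called, both lower after DXR. At an unadjusted p under 0.05 by edgeR there were 36, and DESeq2 called 1. MiR-155-5p had 2427 and 2234 CPM in PMD-Sen D16, above both DDR-Sen D16 libraries, with a log2 difference of -1.40 ± 0.26, and lost its call without DDR-Sen D16 replicate 2. MiR-4286 had 76.2 and 66.0 CPM there (-2.38 ± 0.54) and lost its call without any 1 of the 4 libraries. No member of the miR-17-92, miR-106b-25 or 14q32 lists was called by edgeR or DESeq2, although 4 of 7, 2 of 6 and 5 of 68 had an unadjusted p under 0.05 by edgeR. The median log2 differences were -0.82 for miR-17-92 and 0.05 for 14q32. The 14q32 miRNAs took 6.35% and 6.57% of the CPM of tested miRNAs at DXR D0, 8.32% and 10.8% at PMD-Sen D16 and 9.92% and 9.22% in RS, so that the DDR-Sen D16 shares fell within or near those of the other senescent groups. MiR-17-5p, for instance, was at 178 and 128 CPM after detergent (-0.82 ± 0.34), and miR-145-5p at 1304 and 933 CPM (-0.77 ± 0.23).

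Against RS, 16 of 360 (4.44%) were called, 7 higher and 9 lower after DXR. The calls of 5 miRNAs held without any 1 library. MiR-374b-5p had 143.1 and 224 CPM in RS, on either side of its Ctrl level, and a log2 difference of 1.84 ± 0.28. MiR-337-3p was at 141 and 159 CPM in RS (1.63 ± 0.29). MiR-181a-5p was at 3197 and 3541 CPM in Ctrl, 5269.8 and 5643 CPM at DDR-Sen D16 and 10793 and 14386 CPM in RS (-1.21 ± 0.18), so DDR-Sen D16 lay between the others. MiR-181b-5p (-0.85 ± 0.18) and miR-423-3p (-0.94 ± 0.20) were the others.

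The other 11 calls against RS were each lost without at least 1 library. MiR-93-5p, at 1128 and 1051 CPM in RS (0.69 ± 0.17), and miR-15b-5p, at 260.1 and 272 CPM (1.02 ± 0.29), lay between Ctrl and RS after DXR. MiR-31-5p, at 10345 and 6369 CPM in RS (-1.12 ± 0.25), had RS libraries near or above its Ctrl libraries. The remaining 8 were miR-222-3p, miR-329-3p and miR-505-3p, higher after DXR, and miR-125a-5p, miR-377-5p, miR-652-3p, miR-708-5p and miR-874-3p, lower, with log2 differences from -1.41 to 0.88. With only the 4 libraries of the contrast in the fit, edgeR called 0 (29 at an unadjusted p under 0.05) and DESeq2 called 2.

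**Figure D5:**
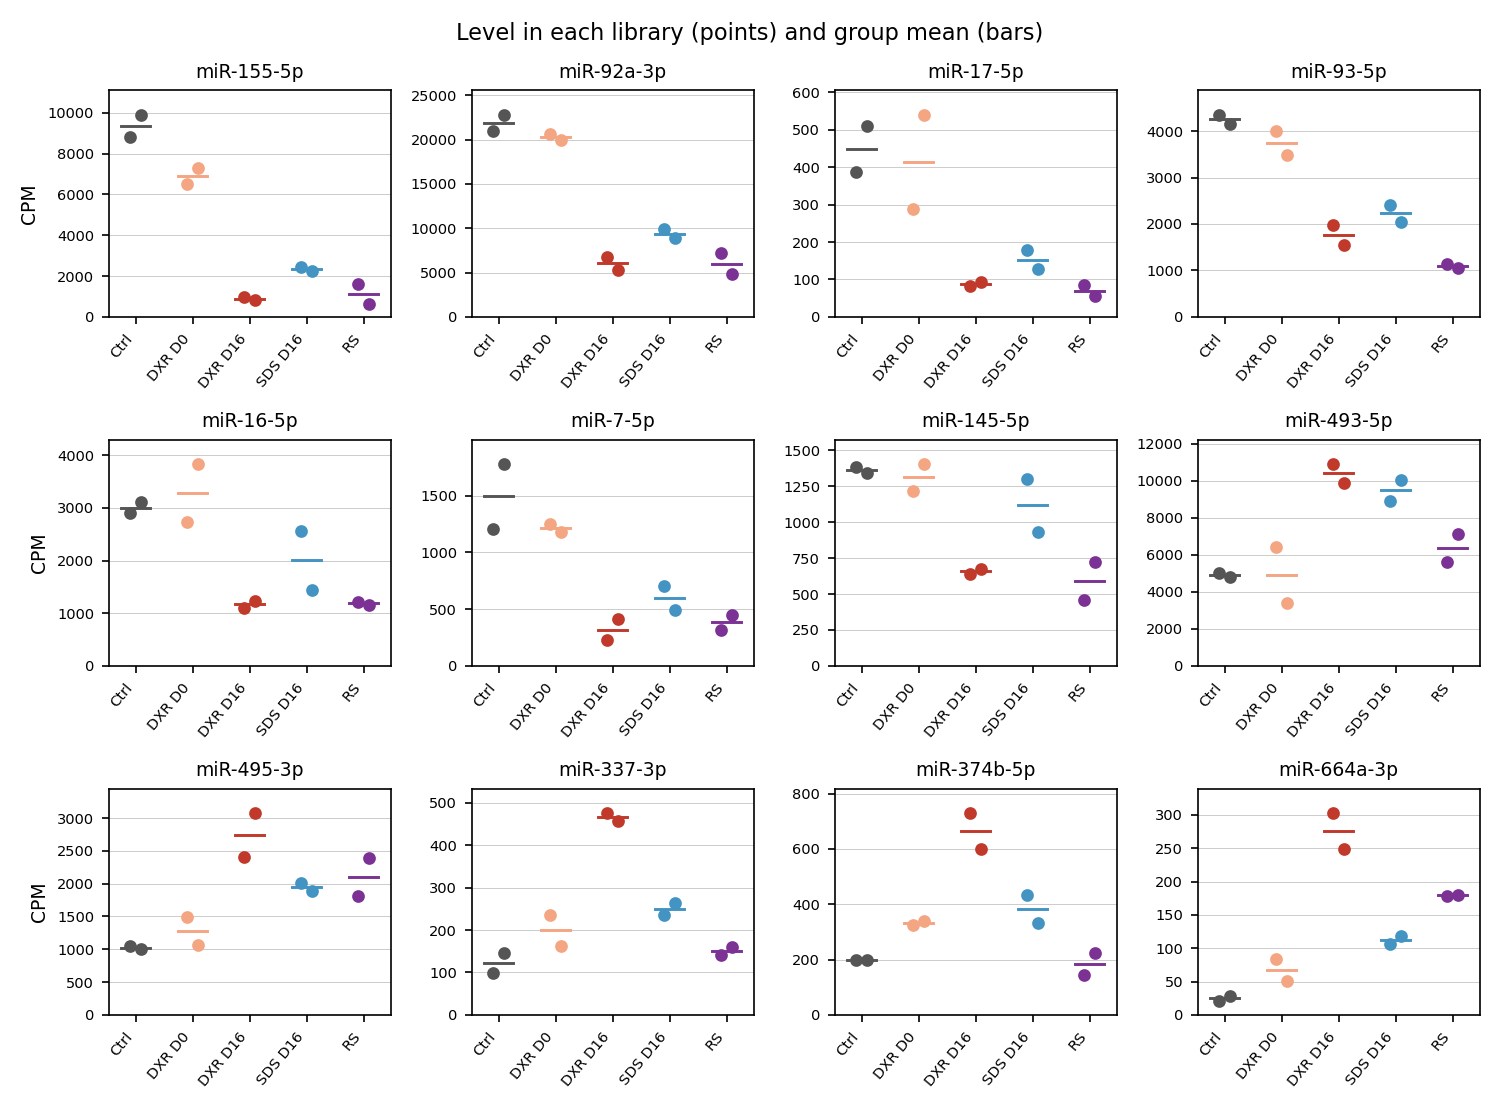
CPM of 12 miRNAs in each library (points, n = 2 per group, bars at the mean) of Ctrl, DXR D0, DXR D16, SDS D16 and RS, on axes that start at 0. MiR-155-5p lies between 815 and 949 CPM at DXR D16, under both SDS D16 libraries, and miR-337-3p and miR-374b-5p are highest at DXR D16.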

How the data were processed

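Small RNA of WI-38 cells was sequenced with the NEXTFLEX Small RNA-Seq Kit on a MiSeq. The authors aligned the reads with exceRpt (GRCh38, miRBase) and deposited a table of expected counts per mature miRNA, in which 1003 of 54288 values are not whole. No column was left unmapped to a sample. Values were rounded to whole counts and fitted over all 36 libraries and 18 groups with edgeR (version 4.0.16, R 4.3.3), using TMM normalisation, filterByExpr and its quasi-likelihood test. P-values of the 360 miRNAs left were adjusted by Benjamini-Hochberg. A miRNA was called at an adjusted p under 0.05. The SE of a log2 fold change was derived as its absolute value divided by the square root of the F statistic of that test. The common biological coefficient of variation was 20.9%, with 18 residual degrees of freedom and 2 libraries a group. Totals of 223548 to 502232 counts set the depth, and intervals cover counting error only. The members and lists were chosen with earlier results of these data known.

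The miRNAs named were the 10 highest and 10 lowest log2 fold changes among those called with a change above 2-fold and libraries that did not overlap, the 10 most abundant, list members that were called or led their list in abundance, and those called against PMD-Sen D16 or RS. Exceptions are stated. MiR-182-5p, miR-200c-3p and miR-1-3p, which led the lists of the miR-183 cluster, of epithelial and of muscle markers, were not called. Hosts are from GENCODE v44 and positions from RefSeq, both GRCh38. Alternatives were DESeq2 (version 1.42.0) with all or 4 libraries, edgeR with 4 libraries, other scaling and filters, thinning to 223548 counts, the replicate number as a block, other thresholds and leaving out each library. The thresholds of the study are an unadjusted p under 0.05 with a change above 2-fold. On simulated counts for DXR D16 against Ctrl the test recovered 94.5% of 200 miRNAs changed by 2 on the log2 scale, a larger change than many of those called, and called 2 of 157 unchanged ones.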

Additional observations from a re-analysis of the deposited data

Results flagged for a closer look

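Direct contrasts between the senescent groups that passed the test are listed here because the difference between groups was itself tested. Each is a log2 difference of DDR-Sen D16 from the other group by edgeR, with n = 2 libraries a group. From PMD-Sen D16, miR-4286 differed by -2.38 and miR-155-5p by -1.40. From RS, the lower miRNAs were miR-874-3p (-1.41), miR-708-5p (-1.23), miR-377-5p (-1.23), miR-181a-5p (-1.21), miR-31-5p (-1.12), miR-652-3p (-0.97), miR-423-3p (-0.94), miR-181b-5p (-0.85) and miR-125a-5p (-0.71). The higher ones were miR-222-3p (0.54), miR-329-3p (0.66), miR-93-5p (0.69), miR-505-3p (0.88), miR-15b-5p (1.02), miR-337-3p (1.63) and miR-374b-5p (1.84). Of these, miR-181a-5p, miR-181b-5p, miR-423-3p, miR-337-3p and miR-374b-5p kept their call without any 1 of the 4 libraries of their contrast.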

How the results depend on the processing

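The 83 miRNAs called against Ctrl kept their direction under each of the 13 alternative fits in which they were tested, and 18 kept their call in all 13. The 83 calls against Ctrl became 125 (70 higher, 55 lower) by edgeR on the 4 libraries alone and 25 to 57 with 1 library left out, while other scaling, filters, DESeq2, thinning and thresholds gave 57 to 86. The 58 calls against DXR D0 became 33 with a change above 2-fold required as well and 17 to 35 with 1 library left out. The 2 calls against PMD-Sen D16 became 4 without a low-count filter, 1 by DESeq2 with 36 or 4 libraries, 11 by edgeR on the 4 libraries, 17 at the study's thresholds and 0 to 2 with 1 library left out. The 16 calls against RS became 5 without a low-count filter, 0 by edgeR and 2 by DESeq2 on the 4 libraries, 8 with a change above 2-fold required and 6 to 21 with 1 library left out. The cause of these shifts was not tested.

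With the replicate number as a block (replicate block), the counts were 84, 59, 2 and 16, and 82 of the 83 calls against Ctrl were kept. The correlation of same-numbered deviations was 0.033, between Ctrl and DDR-Sen D16, the groups for which it was computed, and the labels do not say what a number marks. The sign of 7 list medians turned under at least 1 alternative, among them the miR-34 family (-0.42 to 0.56 without Ctrl replicate 2), the miR-424 and miR-503 cluster (-0.16 without DDR-Sen D16 replicate 2) and let-7 (-0.08 without DDR-Sen D16 replicate 1). Depth limits miRNAs with few counts, and a library at 0 allows up to 3 counts.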
